A study of Mus musculus with 30 samples.

Results

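Megakaryocyte and platelet genes were followed by RNA-seq in bone marrow (BM) and in adipose tissue macrophages (ATMs) of transplanted mice. The members are the 9 genes *Pf4*, *Ppbp*, *Itga2b*, *Gp1bb*, *Gp9*, *Gp6*, *Treml1*, *Vwf* and *Selp*, chosen by symbol. All 9 had a row among the 13353 genes of the BM table and 8 had a row among the 17059 genes of the ATM table, and *Gp6* was not analysed here in ATMs. The values are read counts per gene for 30 libraries, 3 in each of 5 groups in each tissue. Total counts per library were 31086184 to 39925495 in BM and 24876074 to 45300263 in ATMs.

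All recipients were irradiated with 700 and 400 cGy and received BM cells of Shp2E76K/+;LysM-Cre+ mice (CD45.2) mixed in equal numbers with Boy/J competitor cells (CD45.1). LysM-Cre drives recombination mainly in myeloid cells. The WT group comprised lean wild-type C57BL/6 recipients. The other 4 groups comprised *Ob/Ob* recipients, which lack leptin and become obese, and differed in what they were given for 30 days from 8 weeks after transplantation. Vehicle mice received the carrier, GLP1RA mice 3 mg/kg Beinaglutide (a GLP-1R agonist) subcutaneously, antiIL17A mice 200 μg of an anti-IL-17A antibody intraperitoneally 3 times weekly, and Combo mice both agents. Mice were of both sexes, with a labelled age of 12 to 14 weeks, and the genotype label read C57BL/6J for each library. The stage to which this age refers was not resolved, since treatment began only 8 weeks after transplantation and lasted 30 days. The labels name no donor for single libraries, do not tie a BM library to an ATM library of the same mouse, and place all libraries in 1 batch. The study's design gives 3 mice per group, but no label states that each library came from a separate mouse. If libraries of a group shared material, the p-values below would measure only the spread between these libraries.

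Megakaryocytes are the large polyploid cells of the marrow that shed platelets into the blood. While they mature they fill alpha-granules with chemokines and adhesive proteins, among them platelet factor 4, pro-platelet basic protein, von Willebrand factor and P-selectin, and place adhesion receptors on their surface. The receptors bind von Willebrand factor (the GPIb-IX complex), fibrinogen (integrin αIIbβ3) and collagen (glycoprotein VI). Several of these genes are also used elsewhere: endothelial cells express *Vwf* and *Selp*, tissue macrophages can express *Pf4*, and early progenitors express *Itga2b*.

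The 2 chemokine genes are neighbours on chromosome 5 (GRCm38), *Ppbp* at chr5:90768518-90770063 and *Pf4* at chr5:90772435-90773383, both on the plus strand. The 200 bases before the RefSeq start of *Pf4* (chr5:90772235-90772434), *Ppbp* (chr5:90768318-90768517) and *Treml1* (chr17:48359716-48359915), all on the plus strand of GRCm38.p6, are shown because these 3 genes moved together in BM while *Pf4* and *Ppbp* moved apart in ATMs. Capitals mark 3 kinds of motif on either strand. The ETS hexamers searched were AGGAAG as well as CGGAAG, the GATA hexamers were AGATAA together with its variant AGATAG, then TGATAA together with its variant TGATAG, and the TATA box was searched as TATAAA.
Pf4: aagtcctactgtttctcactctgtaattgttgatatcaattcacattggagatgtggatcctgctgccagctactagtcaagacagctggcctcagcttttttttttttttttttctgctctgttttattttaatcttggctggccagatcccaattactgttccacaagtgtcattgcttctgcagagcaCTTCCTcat
Ppbp: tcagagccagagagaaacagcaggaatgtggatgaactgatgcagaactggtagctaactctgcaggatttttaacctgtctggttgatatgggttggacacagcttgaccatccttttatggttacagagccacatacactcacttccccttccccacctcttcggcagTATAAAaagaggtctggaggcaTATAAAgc
Treml1: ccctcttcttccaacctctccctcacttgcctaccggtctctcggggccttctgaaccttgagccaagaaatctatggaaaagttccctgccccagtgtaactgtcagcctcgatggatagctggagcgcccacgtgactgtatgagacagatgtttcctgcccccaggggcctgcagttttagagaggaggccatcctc

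The *Pf4* sequence held 1 ETS hexamer, starting 9 bases before the gene start, and *Ppbp* held TATAAA 2 times, starting 30 and 8 bases before it. *Treml1* held none of these letters in the window. RefSeq sequence was found for 8 of the 9 members, and no entry matched *Vwf*. Over these 8, an ETS hexamer was found in 5 (*Pf4*, *Itga2b*, *Gp1bb*, *Gp9*, *Selp*), a GATA hexamer in 2 (*Gp1bb*, *Gp6*) and TATAAA in 1. Among 32851 promoters of the same length, 33.9% held an ETS hexamer, 21.4% a GATA hexamer and 9.96% TATAAA. The marked matches do not overlap each other and describe letters only.

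Several properties of the libraries touch all that follows. Replicates were far closer in BM (biological coefficient of variation 3.51%) than in ATMs (32.5%). Depending on the comparison, the groups did not overlap for 61.0% to 76.0% of all BM genes and 43.4% to 62.9% of all ATM genes. Statements below that groups were apart have to be read against these shares. The BM library of WT replicate 1 stood apart from the other WT libraries (chi-square per degree of freedom 34.2 and 26.2, against 2.01 to 4.14 for all other BM pairs), and without it 3 members were called in Vehicle against WT and 5 in Combo against WT, as with it. Genes of the sex chromosomes differed between groups in both tissues. The X-inactivation transcript *Xist* had 0 to 3 counts in WT and 0 to 6 in GLP1RA BM libraries, 87 to 125 in antiIL17A, 3382 to 3555 in Combo and 5284 to 6250 in Vehicle, and the Y-linked gene *Ddx3y* had 143 to 170 counts in Combo and 1922 to 2191 in GLP1RA. Group and sex of the cells therefore cannot be told apart. In bulk tissue, fewer megakaryocytes and less RNA per megakaryocyte cannot be told apart either.

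In BM, *Pf4*, *Ppbp* and *Treml1* were highest in WT, next in GLP1RA, lower in Vehicle and antiIL17A, and lowest in Combo. *Pf4* encodes platelet factor 4 (CXCL4), a heparin-binding chemokine of alpha-granules. Normalized counts of *Pf4* were 945, 986 and 1040.1 in WT, 1026, 936 and 900.3 in GLP1RA, 479.7, 539 and 527 in Vehicle, 462, 450.4 and 484 in antiIL17A, and 290.1, 328 and 294 in Combo. The WT and GLP1RA libraries overlapped, the Vehicle and antiIL17A libraries overlapped, and the Combo libraries lay below all others. The mean of 990.5 ± 47.5 in WT (SD, n = 3) stood against 515 ± 31.3 in Vehicle, a log2 fold change of -0.94 (SE 0.07, edgeR adjusted p = 1.07e-15), just inside the limit of 1 that a call required besides an adjusted p below 0.05. Combo fell below WT with a log2 fold change of -1.70 (SE 0.07, edgeR adjusted p = 3.43e-23) and below GLP1RA with -1.65 (SE 0.07, edgeR adjusted p = 1.23e-22).

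*Ppbp* encodes pro-platelet basic protein, the precursor of the neutrophil chemoattractant CXCL7. Its normalized counts were 830.2, 689 and 729 in WT, 536, 603 and 549.8 in GLP1RA, 304, 317 and 304 in Vehicle, 273, 279.6 and 293 in antiIL17A, and 112, 107 and 116 in Combo. No groups overlapped, although Vehicle and antiIL17A lay side by side and did not pass the test (log2 fold change -0.13, edgeR adjusted p = 0.204). Of all BM genes, 76.0% had no overlap between Vehicle and antiIL17A. *Ppbp* fell in Vehicle against WT (log2 fold change -1.28, SE 0.08, edgeR adjusted p = 2.07e-17) and fell again in Combo against Vehicle (-1.46, SE 0.11, edgeR adjusted p = 1.28e-15). Combo stood 6.72-fold below WT and 5.04-fold below GLP1RA.

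*Treml1* encodes TLT-1, a receptor of alpha-granule membranes that reaches the surface on activation. Normalized counts were 157, 148 and 148 in WT, 109, 107 and 113 in GLP1RA, 60.1, 52.6 and 69.6 in Vehicle, 48.7, 74.6 and 57.1 in antiIL17A, and 32.9, 13.8 and 36.5 in Combo. Only Vehicle and antiIL17A overlapped. Vehicle fell 2.49-fold below WT (log2 fold change -1.31, SE 0.19, edgeR adjusted p = 7e-08) and Combo fell 2.17-fold below Vehicle (-1.12, SE 0.25, edgeR adjusted p = 0.00011). The second of these calls depended on Combo replicate 2, the lowest library, without which the log2 fold change was -0.80.

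**Figure D1:**
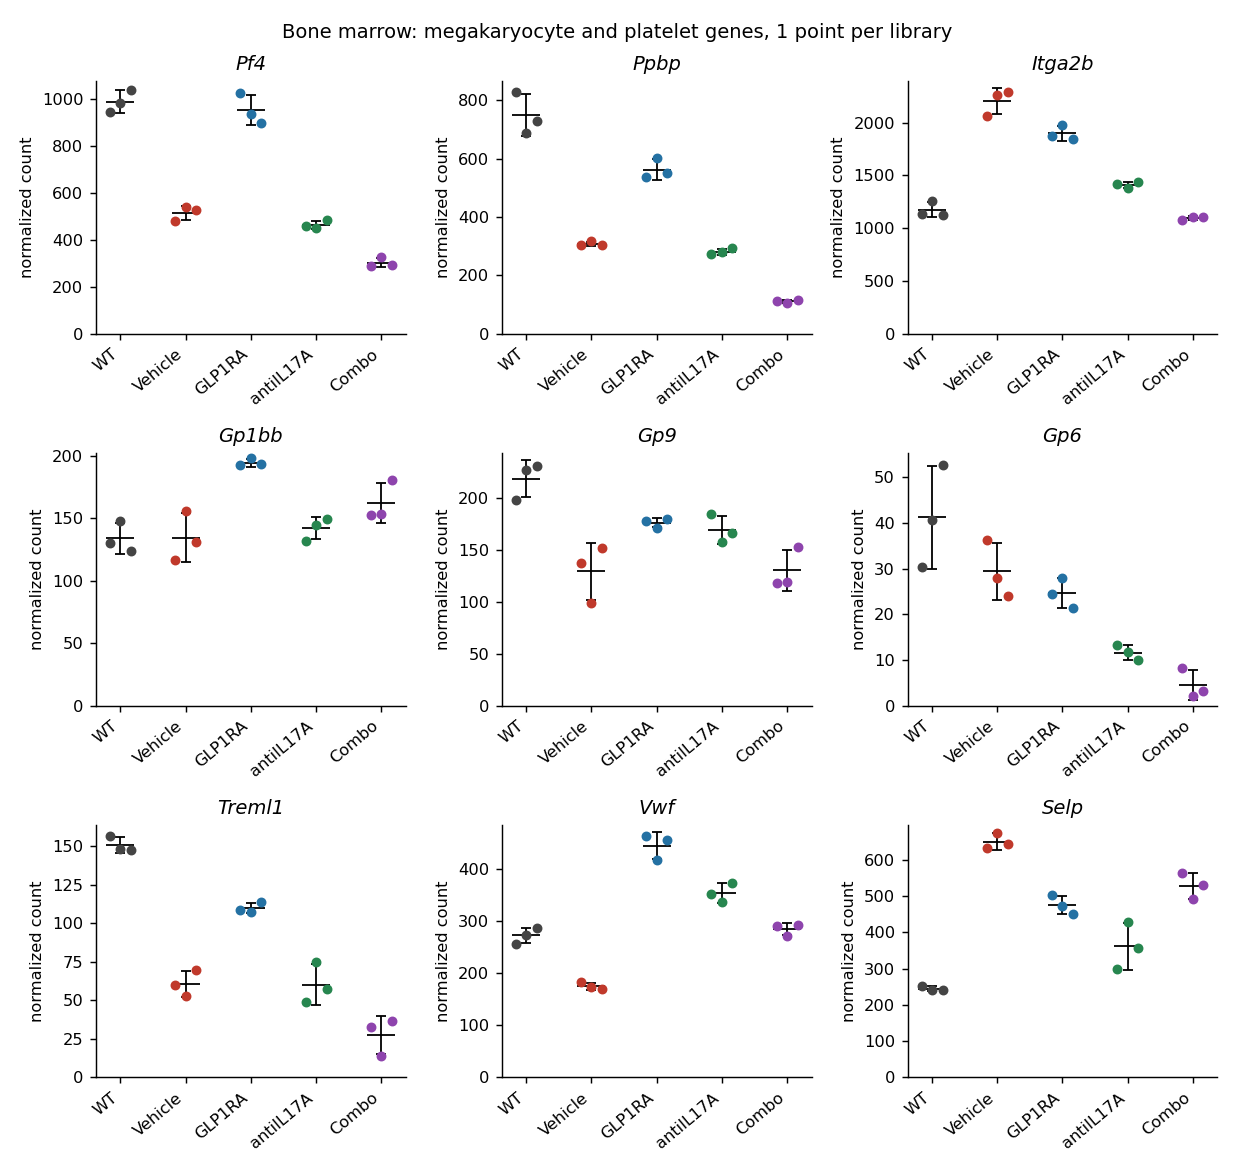
Normalized counts (y axis, from 0) of the 9 members in BM for the 5 groups (x axis), with 1 point per library and the mean with SD (n = 3) in black. *Pf4*, *Ppbp* and *Treml1* share an order of groups with Combo lowest, whereas *Itga2b* and *Selp* were highest in Vehicle and *Vwf* in GLP1RA.

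Receptor genes did not share 1 order. *Gp6* encodes glycoprotein VI, the collagen receptor of platelets, and was the least abundant member. Its raw counts were 35, 41 and 49 in WT, 32, 26 and 20 in Vehicle, 26, 32 and 21 in GLP1RA, 13, 13 and 11 in antiIL17A and 8, 2 and 3 in Combo. Vehicle and GLP1RA overlapped, WT lay above both in raw counts (on the normalized scale WT and Vehicle overlapped), and antiIL17A lay below these 3 groups and Combo below all. *Gp6* fell in antiIL17A (log2 fold change -1.34, SE 0.37, edgeR adjusted p = 0.0016) and in Combo (-2.67, SE 0.46, edgeR adjusted p = 2.09e-06), each against Vehicle, and had a log2 fold change of -0.47 in Vehicle against WT (edgeR adjusted p = 0.164). Its fall from antiIL17A to Combo (-1.33, edgeR adjusted p = 0.032) was lost without antiIL17A replicate 1 or 2, or without Combo replicate 2 or 3 (edgeR adjusted p = 0.0799, 0.0612, 0.14 and 0.108).

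*Itga2b* encodes integrin αIIb (CD41), the platelet-specific chain of the fibrinogen receptor. Unlike the chemokines, it was highest in Vehicle, with normalized counts of 2064, 2267 and 2291, followed by GLP1RA (1872, 1976 and 1849), antiIL17A (1424, 1379.9 and 1434), WT (1138, 1257 and 1129) and Combo (1081, 1109 and 1103). No groups overlapped, though WT and Combo did not pass the test (log2 fold change -0.10, edgeR adjusted p = 0.082). Vehicle exceeded WT with a log2 fold change of 0.91 (SE 0.05, edgeR adjusted p = 4.4e-20), under the fold-change limit. Combo fell below Vehicle with a log2 fold change of -1.01 (SE 0.05, edgeR adjusted p = 2.3e-21), which moved to -0.99 without Vehicle replicate 2 and just under the limit without Combo replicate 1.

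*Gp9* and *Gp1bb* encode the GPIX and GPIbβ chains of the von Willebrand factor receptor. *Gp9* had normalized counts of 198 to 231 in WT, 172 to 179.9 in GLP1RA, 158 to 185 in antiIL17A, 118 to 153 in Combo and 98.8 to 152 in Vehicle. WT lay above the rest, GLP1RA and antiIL17A overlapped, and Vehicle and Combo overlapped. The log2 fold change of *Gp9* in Vehicle against WT was -0.76 (SE 0.14, edgeR adjusted p = 4.31e-06), and none of its comparisons in BM passed the fold-change limit. *Gp1bb* had 117 to 156 normalized counts in Vehicle, 124 to 148 in WT, 132 to 149.6 in antiIL17A, 152 to 181 in Combo and 192 to 198 in GLP1RA, and was not called in any comparison. By the annotation, 92.9% of the exon sequence of *Gp1bb* (chr16:18620317-18622403, minus strand) is shared with *Sept5* or *Gm49601*, and reads there were counted for each gene, so its values hold reads of its neighbours.

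*Vwf* and *Selp* encode von Willebrand factor, which tethers platelets to collagen, and P-selectin, which binds leukocytes. *Vwf* was lowest in Vehicle, with normalized counts of 183, 174 and 169, against 257, 274 and 287 in WT, 291, 271 and 292 in Combo, 352, 336 and 374 in antiIL17A and 464, 417 and 456 in GLP1RA. WT and Combo overlapped and the other groups were apart. *Vwf* rose in GLP1RA (log2 fold change 1.34, SE 0.09, edgeR adjusted p = 4.31e-16) and in antiIL17A (1.01, SE 0.10, edgeR adjusted p = 3.48e-12), each against Vehicle. The second call was lost without Vehicle replicate 3 (0.98) or antiIL17A replicate 3 (0.97). In Vehicle against WT its log2 fold change was -0.63 (SE 0.10, edgeR adjusted p = 4.3e-07).

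*Selp* was instead highest in Vehicle, and it was lowest in WT. WT libraries had 252, 241 and 241 normalized counts, antiIL17A 299, 429 and 356, GLP1RA 502, 473 and 451, Combo 562, 490.3 and 531, and Vehicle 631, 674 and 644. GLP1RA and Combo overlapped, and the other groups were apart. *Selp* rose in Vehicle against WT (log2 fold change 1.41, SE 0.09, edgeR adjusted p = 6.05e-17) and remained above WT in Combo (1.11, SE 0.09, edgeR adjusted p = 1.36e-13). In the annotation 14.1% of its exon sequence is shared with 2 overlapping genes, *Gm16548* and *Gm16587*.

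On a scale per length (RPKM, from TMM-scaled library sizes and exon length), the WT level of *Pf4* in BM was 39.5 ± 1.89 (SD, n = 3), followed by *Ppbp* (19.9), *Gp9* (7.14), *Itga2b* (6.19), *Treml1* (3.09), *Gp1bb* (1.84), *Selp* (1.59), *Vwf* (0.488) and *Gp6* (0.201). In Vehicle the order on this scale was *Pf4* (20.5), *Itga2b* (11.6), *Ppbp* (8.17), *Selp* (4.23) and *Gp9* (4.22), with the other members under 2. In Combo, *Ppbp* stood at 2.96 and *Gp6* at 0.0219.

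The counts of called members have to be read against the share of all genes called. In Vehicle against WT, 1 of 9 members was called higher (*Selp*; 9.44% of all genes were) and 2 lower (*Ppbp* and *Treml1*; 10% of all genes), and the members' median log2 fold change was -0.63 against -0.02 over all genes. In GLP1RA against Vehicle, 1 was called higher (*Vwf*; 7.60% of all genes) and 0 lower (9.08%), with a median of 0.53. *Pf4*, *Ppbp* and *Treml1* had log2 fold changes of 0.89, 0.87 and 0.85 there, all with edgeR adjusted p-values of 0.00018 or less but under the fold-change limit. In antiIL17A against Vehicle, 1 was called higher (*Vwf*; 7.65%) and 1 lower (*Gp6*; 8.46%), with a median of -0.13. In Combo against Vehicle, 0 were called higher (6.58%) and 4 lower (*Ppbp*, *Itga2b*, *Gp6* and *Treml1*; 11.1%), with a median of -0.76 against 0.02 over all genes. The 3 comparisons with Vehicle share its libraries.

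Combo against WT gave 1 member called higher (*Selp*; 4.40% of all genes) and 4 lower (*Pf4*, *Ppbp*, *Gp6* and *Treml1*; 9.93%). Against GLP1RA, Combo gave 0 higher (4.59%) and 4 lower, the same genes as against WT (8.57%), and against antiIL17A 0 higher (1.04%) and 3 lower (*Ppbp*, *Gp6* and *Treml1*; 4.63%). A pair of comparisons was added after the data were seen. GLP1RA against WT gave 0 members called higher (6.10%) and 0 lower (8.62%), although 8 of 9 had an edgeR adjusted p below 0.05, as did 74.7% of all genes. GLP1RA against antiIL17A gave 2 higher (*Pf4*, 1.04, and *Gp6*, 1.09; 2.43%) and 0 lower (3.41%), and the call of *Pf4* was lost without GLP1RA replicate 1 (0.98) and that of *Gp6* without GLP1RA replicate 2 (0.98) or antiIL17A replicate 3 (0.99). In Combo against antiIL17A the call of *Treml1* was lost without antiIL17A replicate 2 (-0.93) or Combo replicate 2 (-0.80).

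Marker genes of other cells moved with the groups in BM. Summed normalized counts of 8 erythroid markers with a row, of 12 listed, were 124629 to 125811 in GLP1RA, 77891 to 79789 in antiIL17A and 45866 to 54720 in the other groups. Those of 7 markers of resident macrophages, of 7 listed, were 591 to 642 in Vehicle, 1111 to 1204 in Combo, 2199 to 2252 in antiIL17A, 2579 to 2840 in WT and 3281 to 3397 in GLP1RA. The sums of 8 other macrophage markers, of 8 listed, ran in another order, from 142631 to 143406 in GLP1RA and 172646 to 174123 in Vehicle up to 486740 to 496765 in WT. Those of 7 stem and progenitor markers, of 7 listed, were 3515 to 3588 in Vehicle, where *Itga2b* was highest, and 4498 to 6590 elsewhere. Taken singly, 4 of these 7 markers were higher in Vehicle than in WT and 3 lower. Of them 1 was called higher and 0 lower, with a median log2 fold change of 0.003. For 7 neutrophil markers, of 8 listed, the sums ran from 2700590 to 2724230 in GLP1RA up to 4570720 to 4618840 in Combo, and for 12 endothelial markers, of 12 listed, they were 1210 to 1285 in Vehicle and 823 to 1089 elsewhere. The endothelial markers split in Vehicle against WT, with 4 called higher and 3 lower and a median log2 fold change of 0.21. No marker with a row was at 0 in all libraries of a group. The part of these cells in the values of *Pf4*, *Itga2b*, *Vwf* and *Selp* was not tested.

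The wider machinery of the lineage was taken from 6 lists of 60 genes, of which 58 had a row in BM. In Vehicle against WT, 4 were called higher (9.44% of all genes were) and 7 lower (10%). The median log2 fold change of the 58 genes was -0.10, against -0.02 over all genes. Among adhesion receptors, 0 of 10 were called higher and 1 lower, *Gp5* (-1.02), the fourth chain of the von Willebrand factor receptor. By sign alone, 3 of the 10 were higher and 7 lower. Of 15 signalling genes 0 were called higher and 2 lower, the larger change being in *Gnaz* (-2.19, at most 39 counts in a library of WT), which encodes a G protein of platelets. By sign alone, 5 of the 15 were higher and 10 lower. Granule genes split, 2 of 12 called higher with *Thbs1* (thrombospondin 1, log2 fold change 2.72) and 2 lower with *Mmrn1* (multimerin 1, -2.27). In the cytoskeleton list *Tuba8* rose (1.87) and *Mylk*, the myosin light chain kinase, fell (-1.02), and in the transcription factor list *Gfi1b* rose (1.04) and *Tal1* fell (-1.16). No gene of the thrombopoietin receptor list was called, of 3 tested.

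In Combo against Vehicle, 5 of the 58 genes were called higher (6.58% of all genes were) and 8 lower (11.1%), with a median of 0.18. The lowest called gene was *Pear1*, a platelet contact receptor, in the adhesion list (-1.41), *Rasgrp1* in signalling (-1.38), *Thbs1* among granule genes (-3.61) and *Tubb1*, the tubulin of the platelet rim, in the cytoskeleton list (-1.26). The highest were *Jam3* (1.71), *Gnaz* (1.33), *Clu* (clusterin, 1.65) and *Vcl* (vinculin, 1.30). *Jam3* and *Gnaz* had few counts, at most 19 and 21 in a Combo library and at most 6 and 10 in a Vehicle library. No transcription factor or thrombopoietin receptor gene was called. Against Vehicle, 7 of the 58 genes were called higher (7.60% of all genes) and 2 lower (9.08%) in GLP1RA (median 0.26). In antiIL17A, 4 were called higher (7.65%) and 2 lower (8.46%), with a median of 0.28. *Thbs1*, *Clu* and *Vcl* are also expressed by other marrow cells.

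Across the 15 BM libraries, Pearson's r of log2 CPM was 0.97 for *Pf4* with *Ppbp*, 0.95 for *Ppbp* with *Treml1* and 0.90 for *Pf4* with *Treml1*, and -0.82 for *Gp9* with *Selp*. These values rest on differences between groups: after group means were taken out, they were -0.30, 0.27, -0.56 and -0.37. Outside the members, the 5 genes most like the mean of *Itga2b*, *Gp1bb*, *Gp9*, *Gp6* and *Treml1* were *Blvrb* (r = 0.97), *Ngfrap1* (0.96), *Cd4* (0.96), *Apoe* (0.95) and *Cd3e* (0.95), over 15 libraries that share groups.

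In ATMs, the F4/80+ cells sorted from visceral fat, *Pf4*, *Selp* and *Vwf* were abundant, whereas *Gp1bb*, *Gp9* and *Treml1* had at most 50 counts in any library. The macrophage genes were divided in Vehicle. *Adgre1*, which encodes F4/80 itself, had 750 to 1184 counts there against 5363 to 6993 in WT and 9596 to 42339 in the treated groups, and *Csf1r* had 851 to 1242 against 14798 to 17547 in WT. Of 8 macrophage markers, 3 were called lower in Vehicle than in WT (these 2 and *Lyz2*) and 3 higher (*Fcgr1*, *Cd14* and *Cd68*, log2 fold changes 3.72, 1.83 and 1.01), with a median of 0.04. Their summed normalized counts were 85336 to 91515 in Vehicle, 115224 to 122559 in WT and 299279 to 434349 in the treated groups. Summed neutrophil markers were 665676 to 706304 in Vehicle and 396826 to 406823 in Combo, against 4609 to 11841 in the other groups, and endothelial markers were 123750 to 127865 in Vehicle against 25485 to 34343 elsewhere. Resident macrophage markers were 7490 to 8591 in Vehicle and 20039 to 48677 elsewhere. Erythroid markers were 222897 to 225992 in Vehicle, 180757 to 185768 in Combo, 128472 to 135922 in WT and 38995 to 51322 in the single-agent groups. Against Vehicle, 3 of 8 erythroid markers were called higher in Combo and 0 lower (median log2 fold change 1.38), although their sum was lower. In Vehicle against WT, 1 erythroid marker was called higher and 1 lower. Of 7 neutrophil markers, 3 were called higher and 2 lower in Combo against Vehicle (median 0.14). *Xist* again separated Vehicle (747 to 1024 counts) and Combo (1098 to 1400) from the other groups (0 to 53). The part of each in the results below was not tested.

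**Figure D2:**
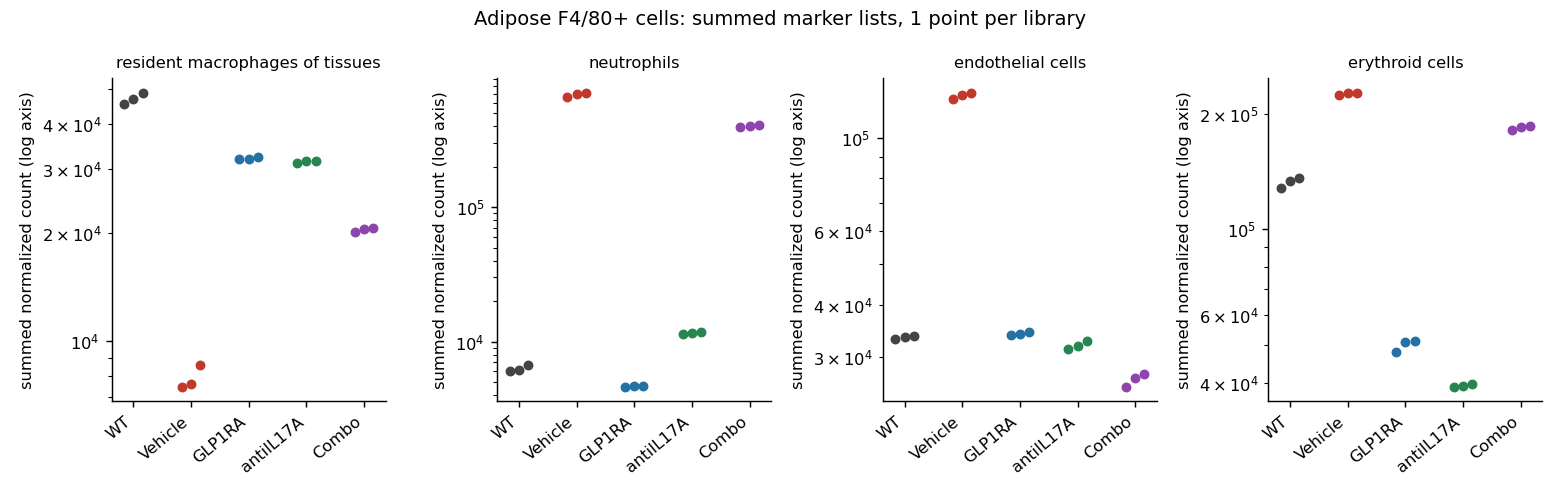
Summed normalized counts (y axis, log scale) of 4 marker lists in ATM libraries of the 5 groups (x axis), with 1 point per library. Neutrophil sums in Vehicle and Combo lie above 396826, all others at or below 11841, and endothelial sums are highest in Vehicle.

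*Pf4* and *Ppbp* parted in ATMs. *Pf4* had normalized counts of 3856, 3477 and 3387 in WT and fell to 802, 794 and 697 in Vehicle, with 4303, 4137 and 4356 in Combo, 5396, 5407 and 5942 in GLP1RA and 7580, 7657 and 6789 in antiIL17A. No groups overlapped. Its log2 fold change was -2.22 in Vehicle against WT (SE 0.08, edgeR adjusted p = 1.29e-12), and against Vehicle it rose by 2.87 in GLP1RA, 3.26 in antiIL17A and 2.48 in Combo (SE 0.08 for each). On the RPKM scale the WT level was 149 ± 10.4 (SD, n = 3), above the 39.5 of WT BM on the same scale, although the tables were normalized apart.

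*Ppbp* instead had 539.7, 426 and 611 normalized counts in Vehicle and 2654, 2395 and 2178 in Combo, against 100.04, 71.5 and 116 in WT, 58.2, 167 and 78.3 in antiIL17A and 38.8, 40.6 and 37.5 in GLP1RA. WT and antiIL17A overlapped, and the other groups were apart. *Ppbp* rose 5.49-fold in Vehicle against WT (log2 fold change 2.46, SE 0.31, edgeR adjusted p = 6.21e-06), fell in GLP1RA (-3.75, SE 0.34, edgeR adjusted p = 1.47e-07) and antiIL17A (-2.38, SE 0.31, edgeR adjusted p = 7.11e-06) against Vehicle, and rose a further 4.58-fold in Combo against Vehicle (2.20, SE 0.29, edgeR adjusted p = 1.36e-05). Combo stood 25.2-fold above WT and 61.7-fold above GLP1RA. Vehicle and Combo, the groups high in *Ppbp*, are those with the highest neutrophil and erythroid sums. Between them the order of the sums differed, as *Ppbp* was higher in Combo and both sums were higher in Vehicle. Taken singly, 6 of 8 erythroid and 5 of 7 neutrophil markers were higher in Combo than in Vehicle, and 2 of each list were lower. The part of neutrophil and erythroid cells in *Ppbp* was not tested.

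*Selp* was highest in Vehicle (11408, 13311 and 12748 normalized counts), alike in WT (8424, 8509 and 8455) and GLP1RA (8287, 8592 and 8541), lower in antiIL17A (5848, 4815 and 5024) and lowest in Combo (1590.4, 1544 and 1978). WT and GLP1RA overlapped and the others did not. It fell in antiIL17A (log2 fold change -1.26, SE 0.09, edgeR adjusted p = 8.24e-09) and in Combo (-2.87, SE 0.10, edgeR adjusted p = 7.68e-13) against Vehicle. *Vwf* had 5156, 4799 and 4906 in WT, 3297, 2944 and 3056 in Vehicle, 2527, 1844 and 1811 in antiIL17A, 1911, 1986 and 1826 in GLP1RA, and 1343, 1209.9 and 1327 in Combo. Only antiIL17A and GLP1RA overlapped, and *Vwf* fell in Combo against Vehicle (-1.26, SE 0.11, edgeR adjusted p = 1.13e-07). Both are endothelial genes as well as platelet genes. *Selp*, like the summed endothelial markers, was highest in Vehicle and lowest in Combo (endothelial sums 123750 to 127865 and 25485 to 27376). *Vwf* was lower in Vehicle than in WT (-0.68, edgeR adjusted p = 6.83e-05, under the fold-change limit) while the summed endothelial markers were higher there. The part of endothelial cells in either gene was not tested.

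*Itga2b* had 441 to 578 normalized counts in WT, 225 to 544 in Vehicle, 379 to 411 in antiIL17A, 181 to 422 in GLP1RA and 147 to 307 in Combo. All neighbouring groups in this order of means overlapped, and the fall in Combo against WT passed the test (log2 fold change -1.34, SE 0.37, edgeR adjusted p = 0.00806). Against Vehicle, its log2 fold change in Combo of -0.98 (edgeR adjusted p = 0.0379) passed the fold-change limit without Vehicle replicate 3 (-1.27) or Combo replicate 1 (-1.40). *Gp1bb* had 3 to 50 counts per library, *Gp9* 0 to 46 and *Treml1* 0 to 42, with at least 1 library of *Gp9* at 0 in Vehicle, GLP1RA and antiIL17A and of *Treml1* in Vehicle, antiIL17A and Combo. Standard errors of their log2 fold changes were 0.98 to 1.71, and none was called with all libraries in the fit. Libraries of 1 group differed widely in these genes, and the parts of low counts and of this spread in the standard errors were not tested.

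**Figure D3:**
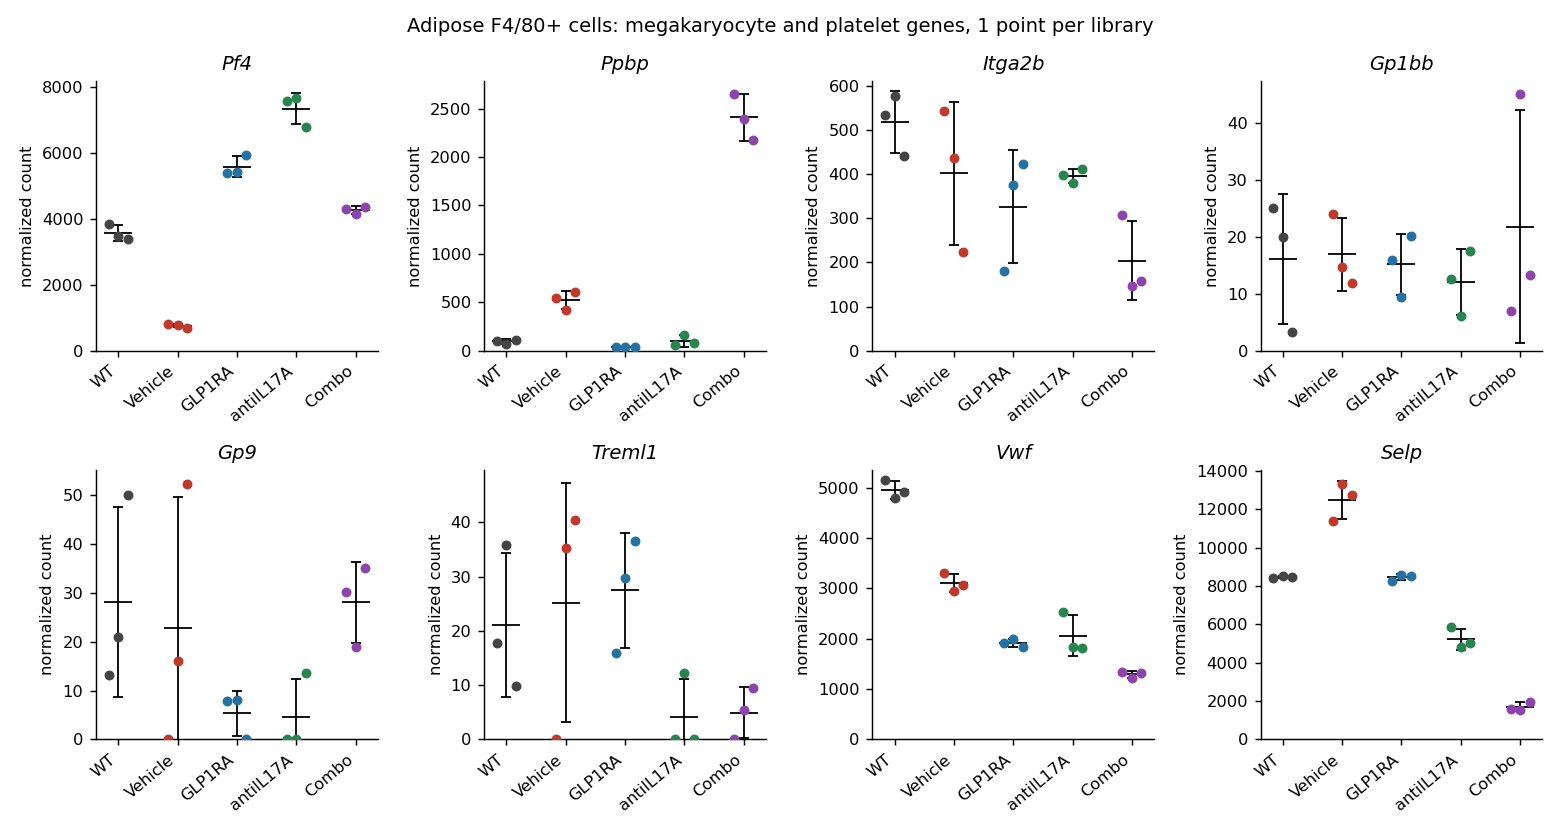
Normalized counts (y axis, from 0) of 8 members in ATM libraries of the 5 groups (x axis), with 1 point per library and the mean with SD (n = 3) in black. *Pf4* is lowest in Vehicle, *Ppbp* highest in Combo and *Selp* lowest in Combo, while *Gp1bb*, *Gp9* and *Treml1* scatter near 0.

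In Vehicle against WT, 1 of 8 members was called higher (*Ppbp*; 12.5% of all ATM genes) and 1 lower (*Pf4*; 22.9%), with a median log2 fold change of -0.11 against -0.21 over all genes. In GLP1RA against Vehicle, *Pf4* was called higher (20.8%) and *Ppbp* lower (10.9%). In antiIL17A against Vehicle, *Pf4* was called higher (22.4%) and *Ppbp* and *Selp* lower (13.1%). In Combo against Vehicle, *Pf4* and *Ppbp* were called higher (14.1%) and *Vwf* and *Selp* lower (12.2%). Combo against WT gave *Ppbp* higher (7.08%) and *Itga2b*, *Vwf* and *Selp* lower (14.5%). Combo against GLP1RA gave *Ppbp* higher (5.38%) and *Selp* lower (13.4%), as did Combo against antiIL17A (3.73% and 10.5%). Of the comparisons added after the data were seen, GLP1RA against WT gave 0 higher (7.70%) and *Ppbp* and *Vwf* lower (7.42%), and GLP1RA against antiIL17A gave 0 higher (4.88%) and *Ppbp* lower (3.22%). The last call rested on antiIL17A replicate 2, the highest library of its group, without which the log2 fold change of -1.37 became -0.82, under the fold-change limit.

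Of the 60 wider genes, 59 had a row in ATMs. In Vehicle against WT, 9 were called higher (12.5% of all ATM genes were) and 12 lower (22.9%), with a median of -0.01. The extremes were *Esam* (2.81), an adhesion molecule shared with endothelium, and *Nfe2* (5.18), a transcription factor shared with other blood cells, on the high side, and *F13a1* (coagulation factor XIII A, -6.48) and *Ptgs1* (cyclooxygenase 1, -3.24), both shared with macrophages, on the low side. *Pdgfb* (1.88), *Tuba8* (2.42) and *Gng11* (1.27) also rose, and *Myl9* (-2.34) and *Meis1* (-1.53) fell. In Combo against Vehicle, 7 were called higher (14.1% of all ATM genes) and 11 lower (12.2%), with a median of 0.31. *F13a1* (5.14), *Tbxas1* (thromboxane synthase, 3.25), *Gfi1b* (3.08) and *Flna* (1.23) rose, and *Esam* (-2.82), *Thbs1* (-2.21), *Tuba8* (-2.17), *Gata2* (-2.17) and *Gng11* (-1.40) fell. The call of *Gfi1b* was close to the threshold (SE 1.22, edgeR adjusted p = 0.0477), with at most 21 counts in a Vehicle library. Both comparisons share the Vehicle libraries. Against Vehicle, 7 of the 59 genes were called higher (20.8% of all ATM genes) and 10 lower (10.9%) in GLP1RA. In antiIL17A, 6 were called higher (22.4%) and 9 lower (13.1%).

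In ATM libraries Pearson's r of *Pf4* with *Ppbp* was -0.39 over 15 libraries, and the highest r of any member pair was 0.73, for *Vwf* with *Selp*. The genes outside the members most like the mean of *Itga2b*, *Gp1bb*, *Gp9* and *Treml1* were *Fbxl22* (r = 0.85), *Cbll1* (0.83), *Pla2g12a* (0.82), *Tmem127* (0.81) and *Rel* (0.81), a mean that rests largely on genes with few counts.

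The change of a gene in ATMs was set against its change in BM in 1 fit of all 30 libraries over the 13076 genes of both tables. In Vehicle against WT, 53.0% of genes differed between tissues and so did 4 of 8 members. The largest difference was that of *Ppbp*, which fell in BM (-1.28) and rose in ATMs (2.46), a difference of 3.75 (SE 0.41, limma adjusted p = 1.06e-09). *Pf4* differed by -1.28 and *Itga2b* by -1.33. For *Selp*, higher in Vehicle in both tissues, the difference was -0.85. In Combo against Vehicle, 52.7% of genes differed and again 4 members. *Pf4* (-0.76 in BM, 2.48 in ATMs) and *Ppbp* (-1.46 and 2.20) had opposite signs, with differences of 3.28 and 3.71, as had *Vwf* (0.70 and -1.26, difference -1.92), and *Selp* differed by -2.54. *Treml1*, *Gp9* and *Gp1bb* did not pass in either comparison, with SEs of 0.96 to 1.74.

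**Figure D4:**
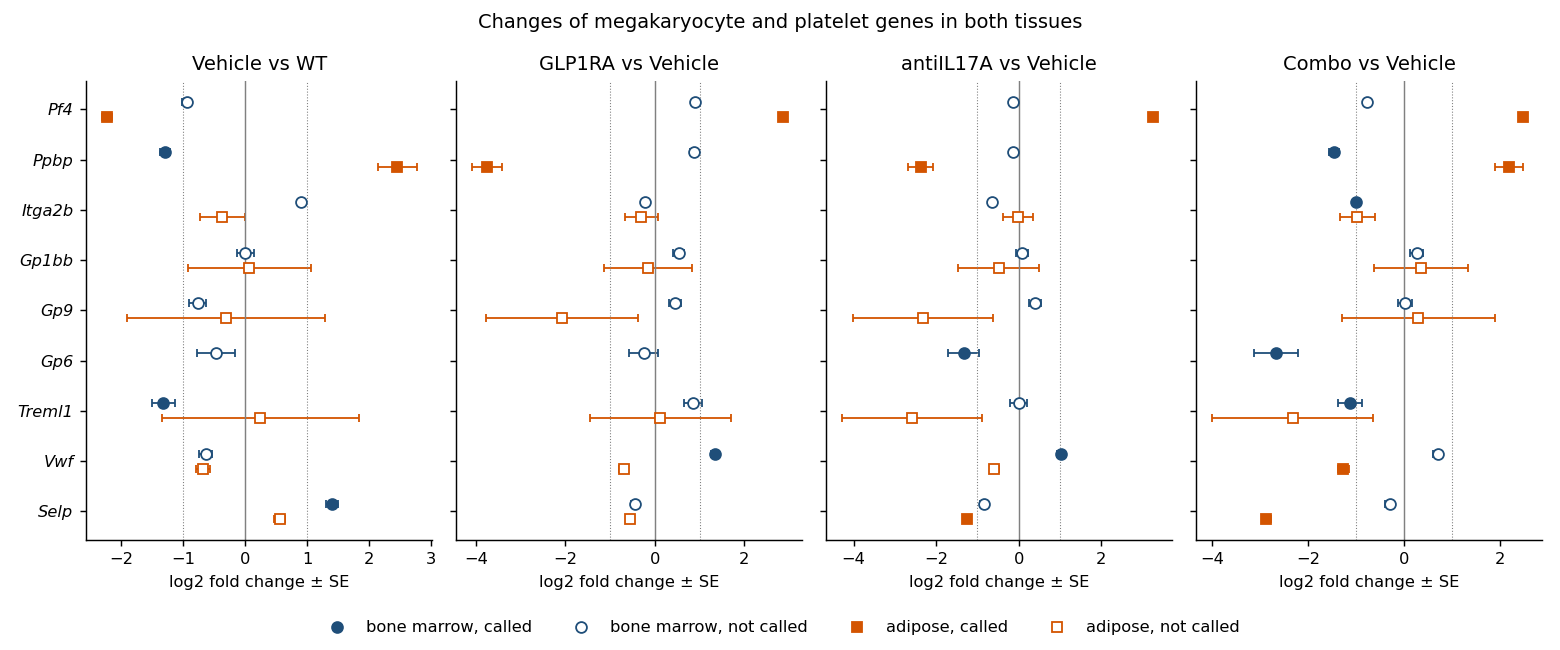
Log2 fold change with SE (x axis; scales differ between panels) of each member (y axis) in 4 comparisons, in BM (circles) and ATMs (squares), filled where the gene was called and with dotted lines at the fold-change limit of 1. *Ppbp* lies on opposite sides of 0 in the tissues in each panel but antiIL17A against Vehicle, and *Pf4* in antiIL17A and in Combo against Vehicle.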

How the data were processed

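RNA-seq was analysed from 2 tables of raw read counts, 1 per tissue, deposited by the authors. The authors aligned reads with STAR 2.7.2a to mm10 and counted them with featureCounts 2.0.1 on GENCODE M22 genes, ignoring strand and crediting a read to each gene it touched. Genes with low counts were already absent (smallest total over 15 libraries 55 in BM and 54 in ATMs). Groups were taken from the sample labels.

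Counts were fitted per tissue over 15 libraries with edgeR 4.0.16 in R 4.3.3 (TMM, filterByExpr, which removed 0 genes, and a robust quasi-likelihood test, 2-sided). Calls required an adjusted p (Benjamini-Hochberg over the whole table) under 0.05 and a log2 fold change beyond 1 in either direction. Tissue differences were tested with limma 3.58.1 (voom with quality weights). DESeq2 1.42.0, DESeq2 size factors, a filter of 10 counts, no fold-change limit, 2-group fits, a replicate block and leave-one-out fits were alternatives. The procedure was tested on simulated data with 200 genes per tissue changed by 1.5 on the log2 scale in Vehicle against WT. Of these, edgeR called 200 in BM and 148 in ATMs, besides 0 and 5 other genes. The test of tissue differences found 285 of 362 changed genes and 5 others. To obtain normalized counts, each count was scaled to the mean effective library size of its tissue. Gene coordinates and exon lengths are from GENCODE M21 (GRCm38). Members and gene lists were chosen with earlier results of these data known, and GLP1RA against WT and against antiIL17A were added after seeing the data. The text names each member and, per list in Vehicle against WT and Combo against Vehicle, the called gene with the largest rise and the largest fall.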

Additional observations from a re-analysis of the deposited data

Results flagged for a closer look

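In 8 cases the change of a member differed between ATMs and BM by the test of the difference itself (limma, adjusted p below 0.05, 3 libraries per group, as ATM change minus BM change on the log2 scale). In Vehicle against WT these were *Ppbp* (3.75, SE 0.41), *Pf4* (-1.28, SE 0.16), *Itga2b* (-1.33, SE 0.30) and *Selp* (-0.85, SE 0.13). In Combo against Vehicle they were *Ppbp* (3.71, SE 0.23), *Pf4* (3.28, SE 0.17), *Selp* (-2.54, SE 0.13) and *Vwf* (-1.92, SE 0.17). Over all 13076 genes, 53.0% and 52.7% differed in the same way. Summed neutrophil and erythroid markers were higher in Vehicle and Combo ATM libraries than in the other groups. Between Vehicle and Combo, both sums were higher in Vehicle, where *Ppbp* was lower. Taken singly, 6 of 8 erythroid markers were higher in Combo than in Vehicle and 2 lower. Of 7 neutrophil markers, 5 were higher in Combo and 2 lower. The part of these cells was not tested.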

How the results depend on the processing

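The calls of members in each main comparison were recomputed under each alternative. Without the fold-change limit, called members in BM became 7 in Vehicle against WT (from 3), 8 in GLP1RA, 5 in antiIL17A and 7 in Combo against Vehicle (from 1, 2 and 4), 7 and 8 in Combo against GLP1RA and against antiIL17A (from 4 and 3), and 8 and 8 in GLP1RA against WT and against antiIL17A (from 0 and 2). In ATMs they became 4 in Vehicle against WT, GLP1RA against Vehicle, and Combo against GLP1RA and against antiIL17A (from 2 each), and 3 in GLP1RA against antiIL17A (from 1). A minimum of 10 counts in each library left 1 in BM antiIL17A against Vehicle, since *Gp6* was then not tested, and the fit of the 2 groups alone left 0 in ATM GLP1RA against antiIL17A, where *Ppbp* had an edgeR adjusted p of 0.0615. No count of called members changed by over 1.5 times with DESeq2 or its size factors. Leaving out antiIL17A replicate 2 or 3 in ATMs left *Treml1* or *Gp9* at 0 in the rest of that group, and calls then appeared whose log2 fold changes (-7.62 and -7.49 against Vehicle) rest on the prior count. Without Combo replicate 1, *Itga2b* in ATMs was called lower in Combo against GLP1RA (-1.10) and antiIL17A (-1.38). Leaving out 1 library gave 1 to 2 called members in BM antiIL17A against Vehicle, 1 to 3 in Combo against antiIL17A and 1 to 3 in GLP1RA against antiIL17A.

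Replicate numbers did not pair the libraries (no comparison had all 3 correlations of deviations above 0.1), and the fit with the replicate block gave counts of calls within 1.5 times. Signs turned, always without a call, for *Treml1* in Vehicle against WT (-0.67 with the block), *Itga2b* in antiIL17A against Vehicle (0.017 with the block, 0.021 with the count minimum), *Gp9* in Combo against WT (0.38 with the block, 0.044 in the 2-group fit) and *Gp1bb* in GLP1RA against WT (0.052 with the block), all in ATMs. *Selp* in ATM GLP1RA against WT was -0.032 with DESeq2 and with its size factors, -0.0089 with the count minimum and -0.044 in the 2-group fit, and *Gp9* in BM Combo against Vehicle -0.0013 and -0.0016 in the last 2. With edgeR over 30 libraries the tissue difference was 0.44 for *Gp9* in Vehicle against WT and 0.12 for *Gp1bb* in Combo against Vehicle. The cause was not tested.

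Leaving out 1 library turned other signs, all of differences that were not called. In BM the ranges were *Gp1bb* -0.11 to 0.10 in Vehicle against WT, *Gp1bb* -0.013 to 0.20 and *Treml1* -0.19 to 0.12 in antiIL17A against Vehicle, *Gp9* -0.15 to 0.10 in Combo against Vehicle. In ATMs they were *Gp1bb* -0.59 to 0.94 in Combo against GLP1RA, *Gp1bb* -0.74 to 0.78 and *Gp9* -0.29 to 1.80 in Combo against Vehicle, *Gp1bb* -0.67 to 0.90 and *Gp9* -0.34 to 0.71 in Combo against WT, *Gp1bb* -0.26 to 1.26 and *Treml1* -0.57 to 5.31 in Combo against antiIL17A, *Gp1bb* -0.40 to 0.19 and *Treml1* -0.46 to 0.65 in GLP1RA against Vehicle, *Gp1bb* -0.56 to 0.38 and *Selp* -0.0083 to 0.018 in GLP1RA against WT, *Gp1bb* -0.41 to 0.53, *Gp9* -1.81 to 0.41 and *Treml1* -0.28 to 0.86 in Vehicle against WT, *Gp9* -0.36 to 5.41, *Itga2b* -0.51 to 0.012 and *Vwf* -0.20 to 0.061 in GLP1RA against antiIL17A, *Itga2b* -0.32 to 0.26 in antiIL17A against Vehicle. Tissue differences ranged over *Gp1bb* -1.01 to 0.34, *Gp9* -0.14 to 3.07, *Itga2b* -0.31 to 0.32 and *Treml1* -2.54 to 0.94 in Combo against Vehicle, and *Gp1bb* -0.42 to 0.94, *Gp9* -2.15 to 1.06, *Treml1* -0.70 to 2.35 and *Vwf* -0.080 to 0.017 in Vehicle against WT. *Gp1bb*, *Gp9* and *Treml1* in ATMs rest on at most 50 counts per library.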
